A study of Mus musculus with 18 samples.

Results

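The cytosolic heat shock chaperones described here are 10 genes taken by name from the gene-level count table: Hsp90aa1, Hsp90ab1, Hspa1a, Hspa1b, Hspa8, Hsph1, Dnaja1, Dnajb1, Fkbp4 and Stip1. The table holds 37315 genes, of which 16213 had enough counts to be tested, and all 10 chaperone genes were among these. The choice goes by name and uses no expression value, but it was made with earlier results of these data known. Their mRNAs were measured by sequencing of polyA RNA from livers of mice on the inbred C57BL/6J background, at ages of 2, 8 and 16 weeks. At each age 3 mice received L-asparaginase (Elspar), an enzyme that breaks down circulating asparagine, by intraperitoneal injection at 3 IU per g body weight once a day, and 3 mice received an equal volume of phosphate buffered saline (PBS). There were 7 daily injections at 2 and 16 weeks and 8 at 8 weeks, and the mice were killed 7.5 hours after the last morning injection. The 6 groups of 3 libraries held both sexes, with 1 or 2 males in each. By label, each PBS group of 8 and 16 weeks held 1 male and each asparaginase group of these ages 2. At 2 weeks the PBS group held 2 and the asparaginase group 1. Fitted changes below allow for labelled sex unless stated, while levels by library, their sums and counts of groups without overlap do not. The labels do not say whether littermates were shared, so the p-values below measure the spread between these mice only.

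Cytosolic chaperones bind unfolded or partly folded proteins and use ATP to release them. Hsp70 proteins take client proteins from J-domain proteins such as DNAJA1 and DNAJB1, nucleotide exchange factors such as HSPH1 free the client, and the adaptor STIP1 hands some clients to Hsp90, which completes the folding of kinases and steroid hormone receptors together with FKBP4. Hspa8 and Hsp90ab1 encode the constitutive forms, whereas Hspa1a, Hspa1b, Hsp90aa1, Hsph1 and Dnajb1 are known targets of heat shock factor 1 (HSF1), a transcription factor that binds inverted repeats of the bases GAA and is set free when unfolded proteins draw chaperones away from it.

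The binding sequences of HSF1 are the reason for showing the promoters. RefSeq promoter windows on GRCm38.p6 were at hand for 7 of the 10 genes, in 11 entries, and the 250 bases before each annotated start were searched for GAANNTTC or TTCNNGAA, which are a pair of inverted GAA units and read the same on both strands. Capitals mark the match, and each stretch is written 5′ to 3′ on the strand of its gene.
Hspa1b: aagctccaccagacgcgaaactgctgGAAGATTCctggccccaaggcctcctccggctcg
Hsph1: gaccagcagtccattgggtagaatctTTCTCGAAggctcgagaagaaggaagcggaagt
Fkbp4: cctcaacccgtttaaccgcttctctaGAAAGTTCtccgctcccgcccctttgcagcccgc
Dnaja1: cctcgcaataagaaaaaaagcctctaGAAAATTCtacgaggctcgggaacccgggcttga
The Hspa1b stretch lies at chr17:34959309-34959368 on the minus strand with the match starting 104 bases before the start, and the same 60 bases stand at the same distance in Hspa1a, at chr17:34972227-34972286 on the minus strand. Over the whole 300-base windows these genes shared 98.7% of positions. The Hsph1 match, at chr5:149636337-149636395 on the minus strand, began 33 bases before the start, that of Fkbp4, at chr6:128438774-128438833 on the minus strand, 151 bases before it, and that of Dnaja1, at chr4:40722318-40722377 on the plus strand, 124 bases before it. No match stood in the windows of Dnajb1 and Stip1. Of all 32851 promoter windows in the table, 12.84% held a match. Of the chaperone genes 5 of 7 did, in 6 of 11 entries that are not separate sites, since the Hsph1 match stands in 2 overlapping windows and that of Hspa1a and Hspa1b in the same 60 bases. A run of 3 such units was in 0.47% of all windows and in 0 of the 11.

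The 10 genes lie on 8 chromosomes (GRCm38, GENCODE M21 annotation). Hspa1a (17:34969190-34972156) and Hspa1b (17:34956436-34959238) are single-exon neighbours on the minus strand, and 62.3% of the 50-base stretches of Hspa1b transcripts also occur in Hspa1a. Reads of these copies can therefore be exchanged, and they are given one by one and summed. Hspa8 (9:40800984-40810087) shared 67.3% of its 50-base stretches with other annotated genes, mainly the copy Gm15459, and Hsp90aa1 (12:110690605-110702728) shared 50.1%, mainly with Gm12346. Dnaja1 (4:40722150-40737149) shared 17.7%, mainly with Gm15542. The counts of Gm12346 ran between 503 and 1643 per library and those of Gm15542 between 960 and 2110, so part of the reads of these chaperones may have been counted at the copies. For Hsp90ab1 (17:45567775-45573271), Dnajb1 (8:83608193-83612653), Stip1 (19:7020702-7039967), Fkbp4 (6:128429735-128438677) and Hsph1 (5:149614287-149636376) the shared part was at most 5.6%. The exons of Hspa1a overlap those of the antisense gene Gm20481 over 19.0% of their length and those of Dnaja1 overlap the antisense gene Smu1 over 7.0%. Whether counting used the strand is not given in the sources used here.

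The libraries held between 24690871 and 46949361 counts, and each result is given in CPM, the counts scaled to a common library size, after TMM scaling, which matches libraries on the bulk of their genes. The major urinary protein (Mup) genes took 5.39% to 47.91% of all counts in adult libraries, against 0.05% to 0.58% at 2 weeks. In 3 libraries of 2 weeks (asparaginase replicate 3 and PBS replicates 1 and 2) the transcripts of both sexes, Xist and Ddx3y, each exceeded 10 CPM, against 0 of 12 adult libraries. Hepatocyte markers summed to between 67398.5 and 111553 CPM. Markers of stratified squamous epithelium summed to 756 and 405 CPM in asparaginase replicates 1 and 2 of 8 weeks, and to at most 65.5 CPM in each of the other libraries. Pancreatic acinar markers summed to 4292 CPM in asparaginase replicate 3 of 16 weeks, and to at most 1646 CPM in each of the others. Skeletal muscle markers summed to 1948 CPM in asparaginase replicate 1 of 8 weeks, and to at most 698 CPM in each of the others. In bulk liver, fewer cells of a type and less RNA per cell cannot be told apart.

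Per kilobase of annotated exon, Hspa8 and Hsp90ab1 were the most abundant of the 10 mRNAs, with means over the 18 libraries of 237 and 180 CPM per kb. Their ranges, 181 to 323 for Hspa8 and 148 to 221 CPM per kb for Hsp90ab1, overlapped. Fkbp4 (35.2 CPM per kb), Hsp90aa1 (33.8 CPM per kb), Stip1 (24.4 CPM per kb) and Dnaja1 (24.1 CPM per kb) followed, and their ranges overlapped among themselves but did not reach the constitutive pair. Hspa1b (7.29 CPM per kb), Dnajb1 (6.11 CPM per kb), Hsph1 (6.02 CPM per kb) and Hspa1a (3.35 CPM per kb) were lowest, again with ranges that overlapped.

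Asparaginase was set against PBS at each age and as the mean of the 3 ages, to see whether the treatment moved these mRNAs. In adult livers all 10 had lower fitted levels with asparaginase at both ages, with a median log2 fold change of -0.60 at 8 weeks and -0.57 at 16 weeks, against 0.01 and 0.00 over all genes tested. At 2 weeks the median was -0.11, with 4 values above 0 and 6 below it. None of the 10 passed an adjusted p of 0.05 at a single age by edgeR's quasi-likelihood test, where 0.432% of all genes passed at 2 weeks, 0.364% at 8 weeks and 0.234% at 16 weeks. At an unadjusted p under 0.05 there were 0, 5 and 5 of the 10 at these ages, beside 12.6%, 18.4% and 11.4% of all genes, and DESeq2, run on the same design, passed 0, 4 and 5, each of them lower with asparaginase. The shares of all genes given here and below are those of the reported edgeR fit over all 18 libraries. No such share is given for DESeq2, so its counts stand without a background. Without asparaginase replicate 3 of 8 weeks, edgeR called 4 of the 10 lower at 8 weeks and 1 at 16 weeks. The share of all genes called is not given for that fit, nor for other fits that leave out libraries. At 8 weeks that fit kept only asparaginase replicates 1 and 2, the libraries with squamous transcripts (756 and 405 CPM, against 10.9 CPM in replicate 3).

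Summed over the 10 genes, the level at 2 weeks was 2262, 2639 and 2014 CPM in asparaginase-treated mice, against 2057, 1996 and 2137 CPM in PBS mice. At 8 weeks it was 1712, 1772 and 2618 CPM in asparaginase-treated mice, against 2472, 2555 and 2290.3 CPM in PBS mice, and asparaginase replicate 3 alone reached the PBS range. At 16 weeks it was 1726, 1820.3 and 1780.3 CPM in asparaginase-treated mice, against 2024, 1938 and 2775 CPM in PBS mice, with every asparaginase library below every PBS library. Hspa8 and Hsp90ab1 make up most of this sum.

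For the mean of the 3 ages, Fkbp4, Dnaja1, Hsp90aa1 and Stip1 fell with asparaginase, which is 4 of 10 genes beside 5.41% of all genes called in either direction and 2.86% called lower. The other 6 did not pass by edgeR, and DESeq2 called 5 of the 10, with Hsph1 added. These edgeR calls rested on few libraries: without the pair of 8-week asparaginase libraries that held squamous transcripts 0 of the 10 passed, and without the 3 libraries of 2 weeks that held transcripts of both sexes 0 of the 10 passed as well, while the fitted changes of the 4 genes kept their sign in both cases. Leaving out single libraries gave 0 calls without asparaginase replicate 1 of 2 weeks, 1 without asparaginase replicate 1 of 8 weeks or PBS replicate 3 of 16 weeks, and 2 without asparaginase replicate 3 of 16 weeks, and a fit with no sex term gave 1. When 8 and 16 weeks alone were averaged, the count was 4.

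**Figure D1:**
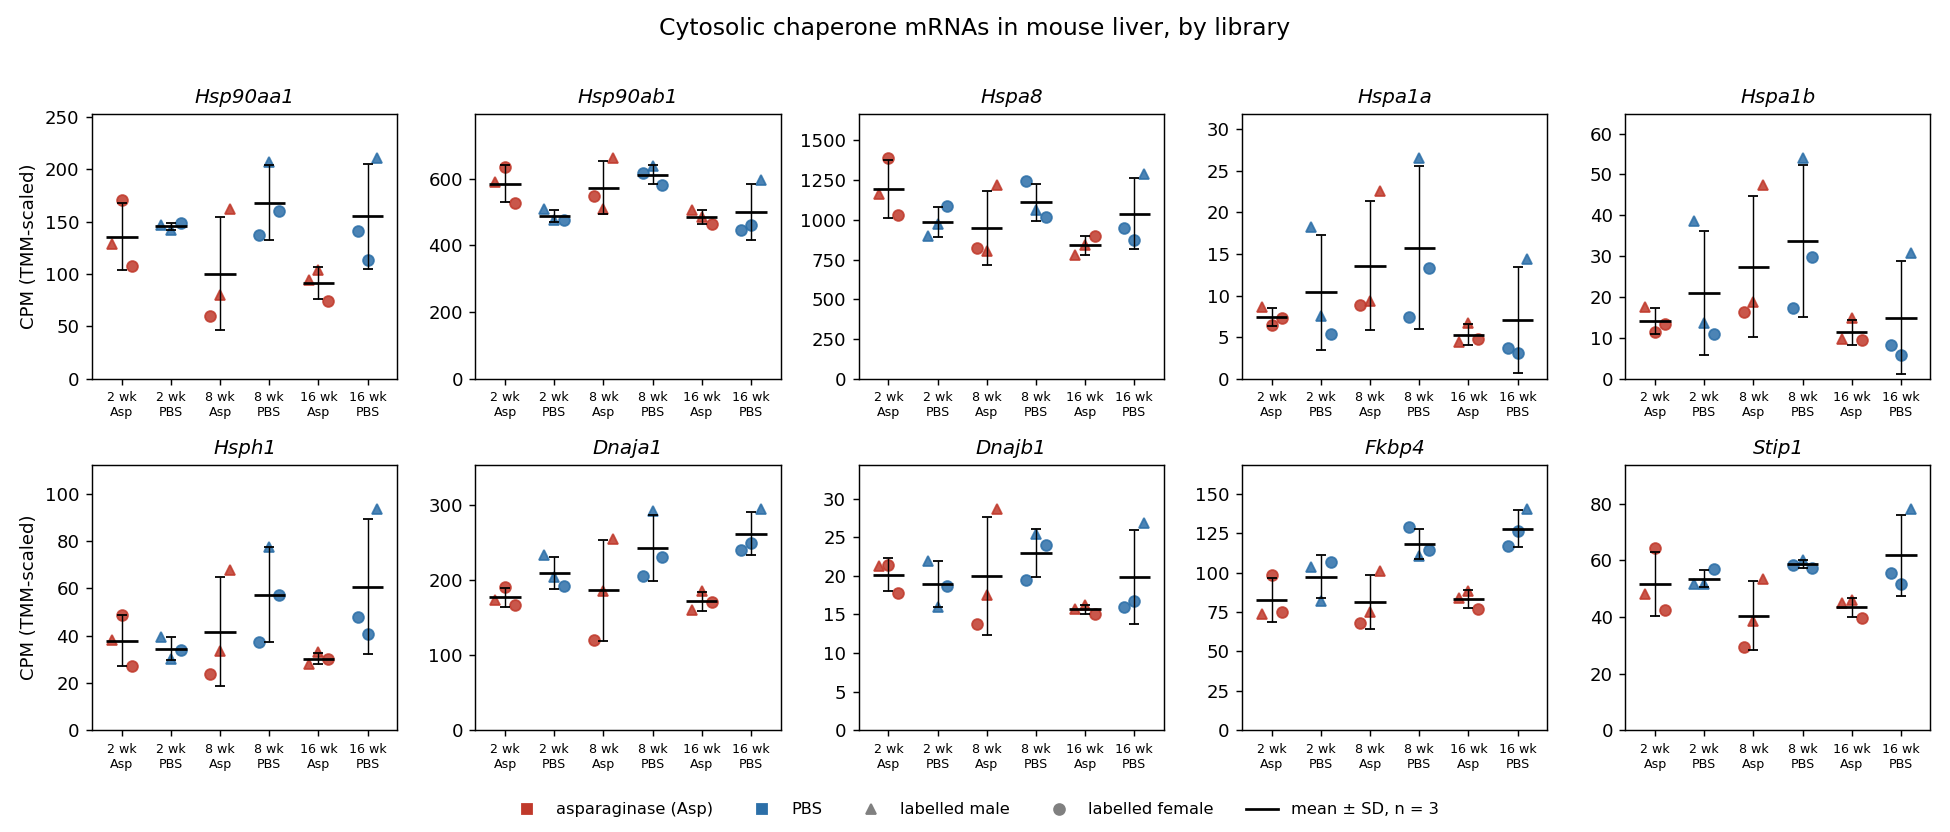
CPM (TMM-scaled, linear axes from 0) of each chaperone mRNA by library, with asparaginase in red left of PBS in blue at each age, triangles for labelled males, circles for labelled females, and black bars for mean ± SD (n = 3). At 16 weeks Hsp90aa1, Hsph1, Dnaja1, Fkbp4 and Stip1 show no overlap between asparaginase and PBS, and 1 asparaginase library of 8 weeks (replicate 3) sits well above the other pair in most panels.

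Among the Hsp90 genes, the inducible and the constitutive form differed in their values. Hsp90aa1, the inducible cytosolic Hsp90, stood at 59.6, 80.1 and 162 CPM in asparaginase-treated mice, against 137, 207 and 160.4 CPM in PBS mice at 8 weeks. At 16 weeks it stood at 94.5, 104 and 74.2 CPM in asparaginase-treated mice, against 141, 114 and 211 CPM in PBS mice, with no overlap. At 2 weeks the values were 129, 171 and 108 CPM in asparaginase-treated mice, against 147, 142 and 149 CPM in PBS mice, and the PBS values lay inside the asparaginase range. Its log2 fold change was -0.13 (SE 0.25) at 2 weeks, -1.05 (SE 0.26, adjusted p = 0.071) at 8 weeks, -0.93 (SE 0.25, adjusted p = 0.18) at 16 weeks and -0.70 (SE 0.14, adjusted p = 0.0182) over the 3 ages by edgeR. Of the 10 genes it had the largest fitted change for the mean of the ages.

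Hsp90ab1, the constitutive Hsp90, read 592, 637 and 528 CPM in asparaginase-treated mice, against 508, 477 and 477 CPM in PBS mice at 2 weeks. Every asparaginase library there was above every PBS library, a pattern that 8.09% of all genes showed. At 8 weeks the values were 548, 510.3 and 663 CPM in asparaginase-treated mice, against 616, 639 and 583 CPM in PBS mice, and at 16 weeks they were 505, 487 and 464 CPM in asparaginase-treated mice, against 445, 461 and 596 CPM in PBS mice, with overlap at both ages. The log2 fold changes were 0.28 (SE 0.13), -0.13 (SE 0.13) and -0.11 (SE 0.13) at 2, 8 and 16 weeks, and 0.01 over the ages with a 95% interval of -0.15 to 0.17 and an adjusted p of 0.951 (edgeR).

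The count ratio of Hsp90ab1 to Hsp90aa1 is taken within a library, so that library scaling has no part in it. At 8 weeks it was 9.21, 6.37 and 4.09 in asparaginase-treated mice, against 4.49, 3.08 and 3.63 in PBS mice. At 16 weeks it was 5.35, 4.67 and 6.26 in asparaginase-treated mice, against 3.15, 4.06 and 2.83 in PBS mice. At 2 weeks it was 4.60, 3.73 and 4.91 in asparaginase-treated mice, against 3.46, 3.36 and 3.21 in PBS mice. The groups did not overlap at 2 and 16 weeks, and at 8 weeks they did through asparaginase replicate 3. The ratio was not tested, and how often ratios of other gene pairs separate in this way was not computed.

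Among the Hsp70 genes, no change passed the test. Hspa8, the constitutive Hsp70, read 1162, 1389 and 1028 CPM in asparaginase-treated mice, against 896, 973 and 1087 CPM in PBS mice at 2 weeks. At 8 weeks it read 825, 803 and 1219 CPM in asparaginase-treated mice, against 1244, 1063 and 1021 CPM in PBS mice. At 16 weeks it read 780.0, 839.5 and 896 CPM in asparaginase-treated mice, against 949, 870.0 and 1291 CPM in PBS mice. The groups overlapped at every age, the log2 fold changes were 0.23 (SE 0.20), -0.26 (SE 0.21) and -0.35 (SE 0.20), and the mean over the ages was -0.13 with a 95% interval of -0.38 to 0.13 (edgeR, adjusted p = 0.559).

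Hspa1a and Hspa1b, the stress-inducible Hsp70 copies, followed each other closely: the ratio of Hspa1b to Hspa1a counts stayed between 1.78 and 2.31 in all 18 libraries. Their sum was 26.2, 17.9 and 20.6 CPM in asparaginase-treated mice, against 56.8, 21.2 and 16.2 CPM in PBS mice at 2 weeks. At 8 weeks the sum was 25.2, 28.0 and 69.9 CPM in asparaginase-treated mice, against 24.6, 80.6 and 43.2 CPM in PBS mice, and at 16 weeks it was 14.0, 21.6 and 14.3 CPM in asparaginase-treated mice, against 12.0, 8.79 and 45.2 CPM in PBS mice. In 3 of the 6 groups a single library stood far above the other 2, namely PBS replicate 1 at 2 weeks, asparaginase replicate 3 at 8 weeks and PBS replicate 3 at 16 weeks, whereas the PBS mice of 8 weeks were spread evenly on the log2 scale. These 3 libraries were labelled male, and PBS replicate 1 of 2 weeks held transcripts of both sexes. PBS replicate 2 of 8 weeks, which had the highest sum of all 18 libraries at 80.6 CPM, was labelled male too. Other labelled males read lower, such as asparaginase replicate 2 of 8 weeks at 28.0 CPM. Why single libraries stood high was not tested. The log2 fold change of the sum was -0.17 (SE 0.51), -0.58 (SE 0.47) and -0.47 (SE 0.46) at the 3 ages, and its adjusted p over the ages was 0.416 (edgeR). Without PBS replicate 3 of 16 weeks, the change of Hspa1a at that age turned to 0.47 and that of Hspa1b to 0.45.

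Hsph1, the Hsp110 exchange factor of Hsp70, read 28.1, 32.9 and 30.0 CPM in asparaginase-treated mice, against 47.9, 40.7 and 93.5 CPM in PBS mice at 16 weeks, where the groups did not overlap. At 8 weeks it read 23.8, 33.4 and 68.0 CPM in asparaginase-treated mice, against 37.4, 77.5 and 57.1 CPM in PBS mice, where they did, and at 2 weeks 38.2, 48.7 and 27.0 CPM in asparaginase-treated mice, against 39.5, 30.2 and 34.0 CPM in PBS mice. The log2 fold changes were 0.14 (SE 0.32), -0.80 (SE 0.32) and -1.09 (SE 0.31, adjusted p = 0.204) with age, and the mean over the ages was -0.58 (SE 0.18, adjusted p = 0.0837, edgeR). DESeq2 passed this gene at 16 weeks and for the mean of the ages.

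The J-domain proteins DNAJA1 and DNAJB1 deliver clients to Hsp70 and start its ATPase. At 2 weeks Dnaja1 read 173, 191 and 166 CPM in asparaginase-treated mice, against 232, 203 and 192 CPM in PBS mice. At 16 weeks it read 159.6, 185 and 169.8 CPM in asparaginase-treated mice, against 240.1, 249 and 293 CPM in PBS mice, with every asparaginase library below every PBS library at both ages. At 8 weeks it read 119, 186 and 254 CPM in asparaginase-treated mice, against 205, 291 and 231 CPM in PBS mice, with overlap. Its log2 fold change was -0.22 (SE 0.16) at 2 weeks, -0.64 (SE 0.16, adjusted p = 0.0719) at 8 weeks, -0.65 (SE 0.15, adjusted p = 0.136) at 16 weeks and -0.50 (SE 0.09, adjusted p = 0.00953) over the ages by edgeR. Dnajb1 ran between 13.8 and 28.6 CPM in asparaginase-treated mice and between 15.9 and 26.8 CPM in PBS mice of all ages. Its mean change of -0.24 (SE 0.12, adjusted p = 0.261, edgeR) did not pass.

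The Hsp90 cochaperones Fkbp4, a prolyl isomerase bound to steroid receptor complexes, and Stip1, the Hsp70-Hsp90 adaptor also called Hop, had lower values in all adult asparaginase libraries than in PBS libraries of the same age. At 8 weeks Fkbp4 read 67.9, 75.1 and 101 CPM in asparaginase-treated mice, against 129, 111 and 114 CPM in PBS mice. Its 16-week values were 83.6, 88.4 and 77.0 CPM in asparaginase-treated mice, against 117, 126 and 140.0 CPM in PBS mice, again without overlap. At 2 weeks it read 74.0, 98.7 and 75.3 CPM in asparaginase-treated mice, against 104, 81.8 and 107 CPM in PBS mice, with overlap. The log2 fold changes were -0.31 (SE 0.16), -0.59 (SE 0.16, adjusted p = 0.0959) and -0.68 (SE 0.16, adjusted p = 0.136) with age, and -0.53 (SE 0.09, adjusted p = 0.00918) over the ages by edgeR.

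At 8 weeks Stip1 read 29.3, 38.5 and 53.4 CPM in asparaginase-treated mice, against 58.2, 60.2 and 57.4 CPM in PBS mice. Its 16-week values were 44.9, 45.8 and 39.5 CPM in asparaginase-treated mice, against 55.4, 51.8 and 77.9 CPM in PBS mice. The groups did not overlap at either age. At 2 weeks Stip1 read 48.1, 64.3 and 42.6 CPM in asparaginase-treated mice, against 51.8, 51.7 and 56.9 CPM in PBS mice, and the PBS values lay inside the asparaginase range. The log2 fold changes of Stip1 were -0.10 (SE 0.18), -0.68 (SE 0.18, adjusted p = 0.0868) and -0.61 (SE 0.17, adjusted p = 0.21), and -0.46 (SE 0.10, adjusted p = 0.0241) over the ages by edgeR.

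Counted over the list, groups did not overlap, with asparaginase lower, for 1 of the 10 genes at 2 weeks (8.64% of all genes), for 2 at 8 weeks (8.57%) and for 5 at 16 weeks (9.63%). Asparaginase replicates 1 and 2 of 8 weeks, the libraries with squamous transcripts, had lower CPM than replicate 3 for all 10 genes. With these 2 libraries left out, which leaves 1 asparaginase library at 8 weeks, the 8-week change was -0.36 for Hsp90aa1, -0.20 for Dnaja1, -0.18 for Stip1 and -0.14 for Fkbp4, against the values above of the full set. Their part in the result was not tested. Marker lists whose sums did not overlap between treatments were the following. At 8 weeks erythroid markers summed to 244 to 303 CPM in asparaginase-treated mice, against 505 to 548 CPM in PBS mice, and Kupffer cell markers to 208 to 258 CPM in asparaginase-treated mice, against 280 to 514 CPM in PBS mice. Squamous markers summed to 10.9 to 756 CPM in asparaginase-treated mice of that age, against 2.25 to 7.27 CPM in PBS mice. Markers of pancreatic acinar cells summed to 572 to 1646 CPM in asparaginase-treated mice of 2 weeks, against 75.6 to 178 CPM in PBS mice of that age, and skeletal muscle markers to 2.48 to 16.4 CPM in asparaginase-treated mice of 16 weeks, against 36.7 to 210 CPM in PBS mice. Stellate cell and fibroblast markers summed to 199 to 239 CPM in asparaginase-treated mice of 16 weeks, against 243 to 272 CPM in PBS mice. Their part was not tested either.

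**Figure D2:**
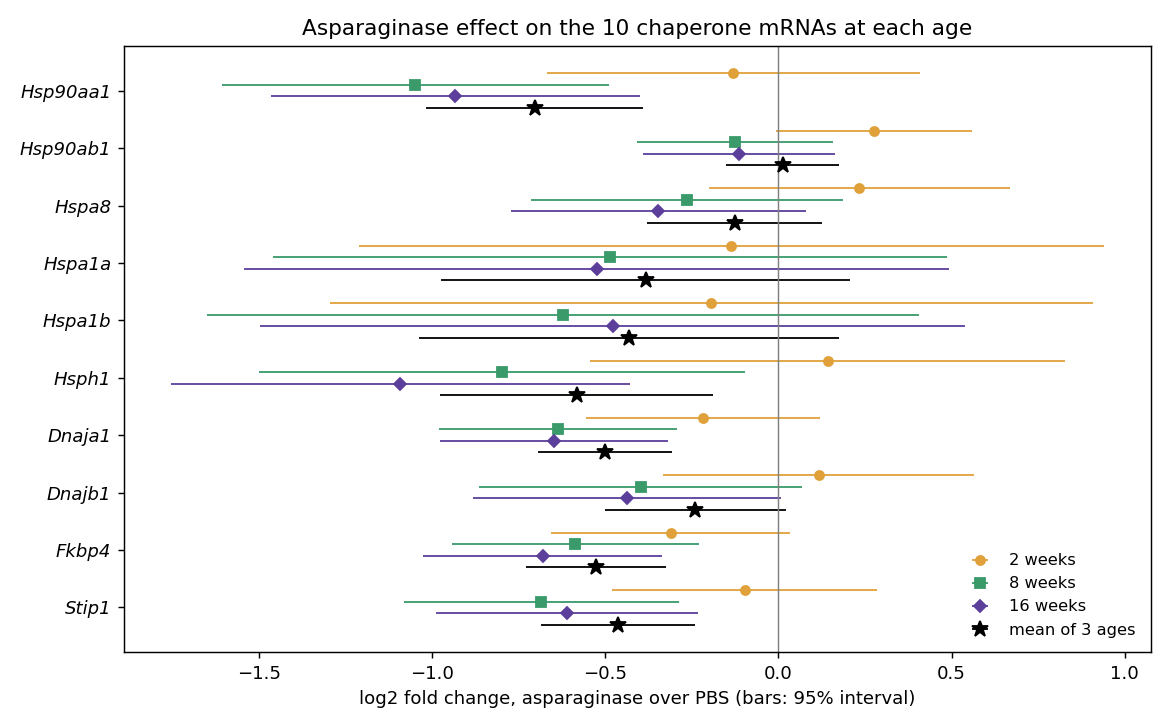
Log2 fold change of asparaginase over PBS for each of the 10 chaperone mRNAs at 2, 8 and 16 weeks and for the mean of the 3 ages, from 1 edgeR fit over 18 libraries, with bars for 95% intervals. The 8- and 16-week values of all 10 genes lie below 0, and the means of Hsp90aa1, Dnaja1, Fkbp4 and Stip1 pass an adjusted p of 0.05.

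The difference of the asparaginase effect between ages was tested as an interaction. For 8 against 2 weeks, all 10 differences were below 0 with a median of -0.46, and for 16 against 2 weeks all 10 were below 0 with a median of -0.47. None passed, nor did any gene of the whole table in either comparison (0% called). At an unadjusted p under 0.05 there were 3 chaperone genes for 8 against 2 weeks and 2 for 16 against 2 weeks by edgeR, beside 9.31% and 6.2% of all genes, and DESeq2 passed 0 of the 10 in each. The largest in size was that of Hsph1 for 16 against 2 weeks, at -1.24 with an adjusted p of 0.611 (edgeR). For 16 against 8 weeks the median difference was -0.02, 0 of the 10 passed, also by DESeq2, 0 had an unadjusted p under 0.05, beside 9.36% of all genes, and 0.0123% of all genes passed. These comparisons share their libraries, and a difference between the effect in adults and that in 2-week mice did not pass for any single chaperone gene.

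Other genes of the proteostasis network were read from lists. Of 18 endoplasmic reticulum (ER) chaperone genes, 11 fell and 0 rose for the mean of the ages, with a median of -0.54, beside 2.86% of all genes called lower. They included Hsp90b1 at -0.54 (SE 0.08), the ER form of Hsp90, Pdia3 at -0.57 (SE 0.09), a disulfide isomerase, and Creld2 at -1.19 (SE 0.20). Of 44 other cytosolic chaperones and cochaperones that were tested, 3 fell and 0 rose, with a median of -0.08. These were the Hsp70-interacting protein gene St13 at -0.27 (SE 0.06), Ahsa2, related to an activator of the Hsp90 ATPase, at -0.47 (SE 0.11), and the Hsp110 family gene Hspa4l at -0.33 (SE 0.08). None of 14 subunits of the chaperonin TRiC and of prefoldin passed, and 2 had an unadjusted p under 0.05, which 22.4% of all genes had. Of 13 mitochondrial chaperones and proteases 3 rose, namely Hspa9 at 0.41 (SE 0.08), the mitochondrial Hsp70, its J-protein Dnaja3 at 0.41 (SE 0.09) and the protease Lonp1 at 0.37 (SE 0.09). The same 3 rose at 2 weeks. Of all genes, 2.55% were called higher for the mean of the ages and 0.327% at 2 weeks.

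Of 8 genes for heat shock factors and regulators of HSF1, 0 passed for the mean of the ages and 3 had an unadjusted p under 0.05, again beside 22.4% of all genes. Hsf1 had a log2 fold change of 0.16 (SE 0.06, adjusted p = 0.14, edgeR) and Hsf2 one of -0.08 (SE 0.09, adjusted p = 0.659). The cold-inducible RNA-binding genes Cirbp and Rbm3 stood at 0.13 (SE 0.11) and 0.05 (SE 0.10), and 0 of 3 genes of their list passed. Of 16 immediate early and acute stress genes 2 rose, Nr4a1 at 0.64 (SE 0.16) and Atf3 at 1.09 (SE 0.28), and of 8 glucocorticoid-responsive genes 1 rose, the kinase gene Sgk1 at 0.87 (SE 0.16), both beside the 2.55% of all genes called higher.

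**Figure D3:**
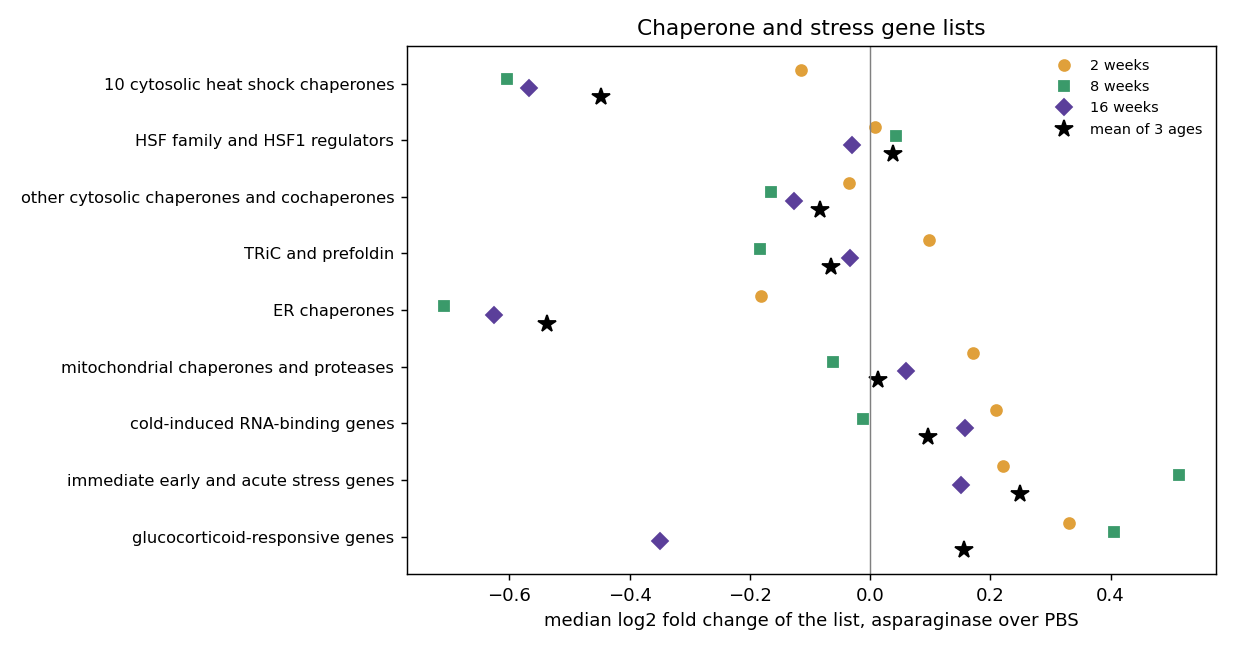
Median log2 fold change, asparaginase over PBS, of the 10 cytosolic heat shock chaperones and of 8 other gene lists at each age and for the mean of the 3 ages. The medians of the 10 chaperones (-0.60 at 8 weeks and -0.57 at 16 weeks) and of the ER chaperones are the lowest at these ages, and no test compares the lists.

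The chaperone mRNAs varied together between mice of the same group, though not equally for every pair. After centring log2 CPM within each group, each of the 10 genes had a Pearson r between 0.67 (Fkbp4) and 0.95 (Dnajb1) with the mean of the other 9 over the 18 libraries. Hsph1 stood at 0.95, Hsp90aa1 at 0.94 and Hspa8 at 0.70. The pair Hsp90aa1 and Hsph1 had an r of 0.94, whereas Hspa1a had one of 0.28 with Fkbp4 and 0.35 with Hspa8. Hspa1a and Hspa1b, whose reads can be exchanged, had one of 0.99, and each is part of the mean the other is set against. These values describe libraries that share depth, scaling and groups, and carry no p. Centring was by group alone, so differences by labelled sex remain in them. Genes outside the list also reached high values, as given below.

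Spread within groups was widest for the stress-inducible genes. The SD of log2 CPM within groups was 0.83 for Hspa1b, 0.80 for Hspa1a, 0.50 for Hsph1 and 0.41 for Hsp90aa1, against 0.19 for Fkbp4, 0.22 for Hspa8 and 0.14 for Hsp90ab1. The libraries that stood highest above their own group were asparaginase replicate 3 of 8 weeks (1.95 SD units for the mean of the 10 genes) and PBS replicate 3 of 16 weeks (1.63), and the lowest was asparaginase replicate 1 of 8 weeks (-1.40).

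**Figure D4:**
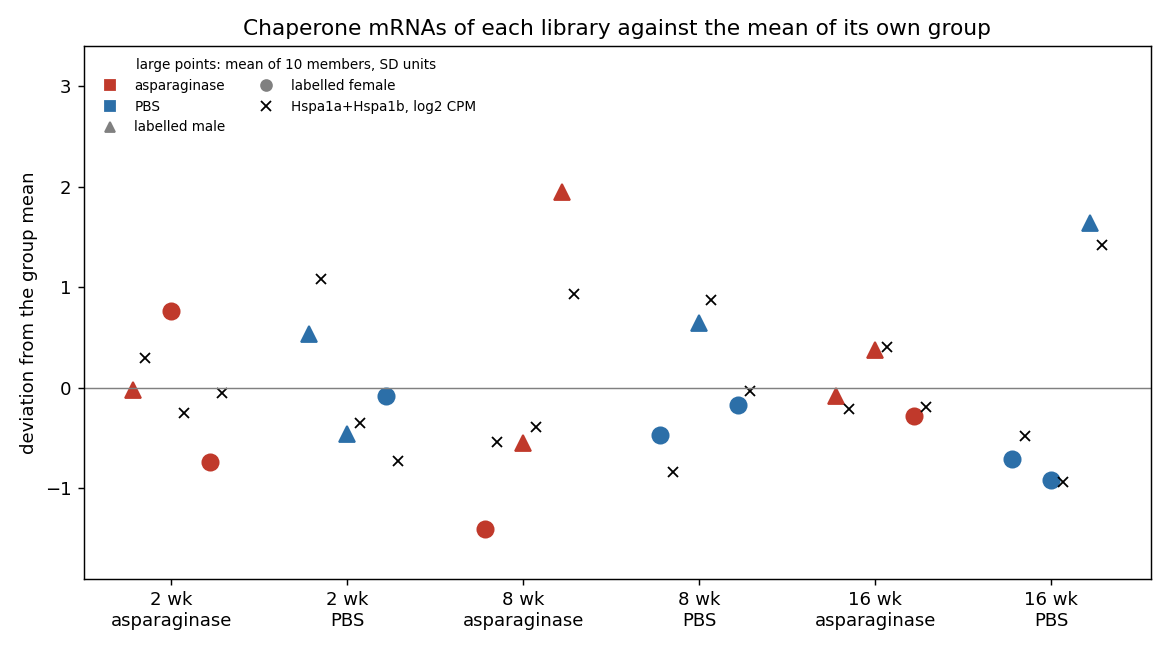
Deviation of each library from the mean of its own group, with asparaginase left of PBS at each age: large points give the mean of the 10 chaperone mRNAs in SD units (triangles labelled male, circles labelled female) and crosses the log2 CPM of Hspa1a and Hspa1b together. Asparaginase replicate 3 of 8 weeks (1.95) and PBS replicate 3 of 16 weeks (1.63) are the highest points, and both are labelled male.

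Among the genes whose within-group pattern was most like the mean of the 10 were Stt3b (r = 0.90), Taf13 and Trmt44 (both 0.88), Map2k1 (0.87), Cacybp and Zfp523 (both 0.86), and Ints8, Chordc1 and Adgra3 (all 0.85), over 18 libraries. Cacybp and Chordc1 encode partners of the Hsp90 system. The most opposite were Dhx35 (-0.93), Ggt7 (-0.92), Bbs12 (-0.90), and Klhl40 and Dusp13 (both -0.89). For the sum of Hspa1a and Hspa1b the most alike included Gak, Pkp4, Msh3 and the J-protein gene Dnajb4, each with an r of 0.89, followed by Otud3, Swt1, Dcun1d4, Taf13 and Ube3c down to 0.85, and the most opposite were Sestd1 (-0.92), Plscr3 (-0.91), Arhgap25, Cxcr3 and Cfap69 (all -0.90).

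Labelled sex was a term of the fit, and its mean over 8 and 16 weeks was read for the adults. Relative to the bulk of genes, 5 of the 10 chaperone genes rose in males against females, beside 12.9% of all genes called and 4.87% called higher. Hspa1b had a log2 fold change of 1.19 (SE 0.34, adjusted p = 0.0371, edgeR) and Hspa1a one of 1.15 (SE 0.33, adjusted p = 0.0377). Hsph1 stood at 0.73 (SE 0.22, adjusted p = 0.0486), Hsp90aa1 at 0.66 (SE 0.18, adjusted p = 0.0301) and Dnaja1 at 0.39 (SE 0.11, adjusted p = 0.0346). The other 5 ranged between 0.14 for Hspa8 and 0.44 for Dnajb1 and did not pass by edgeR. DESeq2 called 7 of the 10, with Dnajb1 and Stip1 added.

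By library, the sum of Hspa1a and Hspa1b had a median of 36.6 CPM in adult males (14.0 to 80.6, n = 6), against 19.5 CPM in adult females (8.79 to 43.2, n = 6). In 5 of the 6 males it was above every female of the same group, and for Hsp90aa1, Hspa1b, Dnajb1 and Stip1 this held in 6 of 6. For Hspa8 it held in 2 of 6, and in 3 of 6 males Hspa8 was below every female of the same group. In the adult asparaginase groups the only females were replicate 1 of 8 weeks and replicate 3 of 16 weeks, so each male there was set against a single mouse. The share of all genes with this pattern was not computed. The calls rested on single libraries: without PBS replicate 2 or 3 of 16 weeks, or without asparaginase replicate 1 of 8 weeks, 0 of the 10 genes passed. The count was 1 without PBS replicate 1 or asparaginase replicate 2 of 16 weeks, 2 without PBS replicate 1 or asparaginase replicate 3 of 8 weeks, and 3 without PBS replicate 2 of 8 weeks, asparaginase replicate 3 of 16 weeks or asparaginase replicate 2 of 2 weeks. With plain library totals in place of TMM, the median of all genes moved to -0.53. The changes of Hsp90ab1, Hspa8, Dnaja1, Dnajb1, Fkbp4 and Stip1 turned negative, and 2 genes, Hsp90ab1 and Fkbp4, were called lower. The share of all genes called lower with plain totals is not given. Relative to that median all 10 stayed higher in males, by 0.17 to 1.21. Mup genes took 23.5% to 47.9% of the counts in adult males, against 5.39% to 28.4% in adult females, and their part in these values was tested by the change of scaling alone.

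Age was read in PBS mice. At 8 against 2 weeks all 10 chaperone mRNAs had positive fitted changes, with a median log2 fold change of 0.34, and at 16 against 2 weeks 8 of 10 did, with a median of 0.12. None passed by edgeR in either comparison, beside 31.7% of all genes at 8 weeks and 27.8% at 16 weeks. Unadjusted p was under 0.05 for 2 of the 10 at 8 weeks and for 3 at 16 weeks, beside 42.8% and 39.8% of all genes, and DESeq2 passed 2 and 1. The closest were Hsp90ab1 at 0.35 (SE 0.13, adjusted p = 0.0512) and Hsph1 at 0.85 (SE 0.31, adjusted p = 0.0545) for 8 weeks, and Hsph1 at 0.84 (SE 0.31, adjusted p = 0.0589) for 16 weeks, all by edgeR. Leaving out 1 library gave up to 2 calls in each comparison: 2 for 8 weeks without PBS replicate 1 of 2 weeks or asparaginase replicate 2 of 8 weeks, and 2 for 16 weeks without asparaginase replicate 3 of 8 weeks. One call for 8 weeks came without asparaginase replicate 2 of 2 weeks, PBS replicate 3 of 16 weeks, or asparaginase replicate 3 of 8 or of 16 weeks, and one for 16 weeks without PBS replicate 1 of 2 weeks, asparaginase replicate 2 of 8 weeks or asparaginase replicate 3 of 16 weeks. The groups did not overlap, with the older mice higher, for 3 genes at 8 weeks (16.4% of all genes) and 3 at 16 weeks (19.5%).

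These signs hold relative to the bulk of genes only. With plain totals the median of all genes was -0.72 for 8 against 2 weeks and -0.80 for 16 against 2 weeks. Of the 10 chaperone genes 7 and 9 had negative changes, and 4 and 9 were called lower. The share of all genes called lower in that fit is not given, so these calls are not a result about the chaperones. Relative to that median all 10 were higher at 8 weeks, by 0.17 to 1.04, and 8 of 10 at 16 weeks. For asparaginase, plain totals moved the median of all genes to 0.37 at 8 weeks, 0.25 at 16 weeks and 0.22 for the mean of the ages. All 10 chaperone genes remained below it at 8 and at 16 weeks, and 9 of 10 for the mean, while the plain values of Hsp90ab1 and Hspa8 at 8 weeks and for the mean, and that of Hsp90ab1 at 16 weeks, were above 0.

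**Figure D5:**
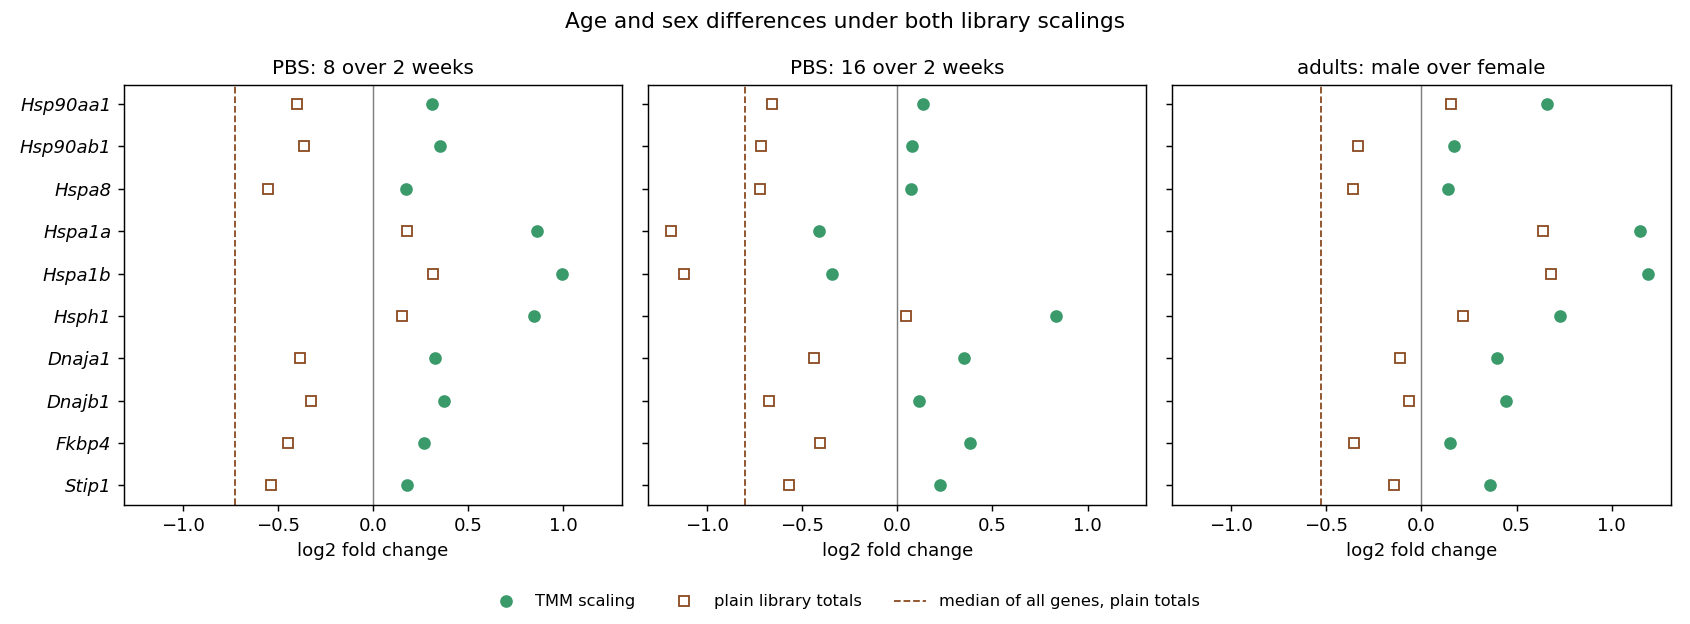
Log2 fold change of each chaperone mRNA with TMM scaling (filled circles) and plain library totals (open squares), for 8 over 2 weeks and 16 over 2 weeks in PBS mice and for adult males over females. The dashed line is the median of all genes with plain totals (-0.72, -0.80 and -0.53), and the squares lie to its right except those of Hspa1a and Hspa1b in the middle panel.

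At 16 against 8 weeks in PBS mice 0 of the 10 passed by edgeR, also by DESeq2, beside 0.413% of all genes, and 3 had an unadjusted p under 0.05, beside 15.4% of all genes. Hspa1b stood at -1.34 (SE 0.47, adjusted p = 0.205) and Hspa1a at -1.27 (SE 0.45, adjusted p = 0.214). The spread between PBS mice of 1 age, 12.0, 8.79 and 45.2 CPM for their sum at 16 weeks, limits what can be seen here.

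Among the related lists, 14 of the 44 other cytosolic chaperones rose at 8 against 2 weeks in PBS mice and 10 rose at 16 against 2 weeks, with 0 falls in both, beside 14.8% and 13.2% of all genes called higher. The small heat shock protein gene Hspb1 stood at 2.01 (SE 0.32) and 1.85 (SE 0.32), Hspa4, an Hsp110 gene, at 0.53 (SE 0.09) and 0.42 (SE 0.09), and Bag4, an Hsp70 cochaperone gene, at 0.55 (SE 0.10) and 0.54 (SE 0.10). Of the 8 heat shock factor and HSF1 regulator genes, 3 rose and 2 fell at 8 against 2 weeks, and 2 rose and 2 fell at 16 against 2 weeks. Of all genes, 16.9% and 14.5% were called lower in these comparisons. Vcp, an ATPase of protein degradation, rose at 0.66 (SE 0.10) and 0.42 (SE 0.10), and Hsf4 at 1.12 (SE 0.26) and 1.11 (SE 0.26), while Hsbp1 rose at 8 weeks, at 0.26 (SE 0.09), and stood at 0.06 (SE 0.09) without a call at 16 weeks. Hdac6 fell at -0.34 (SE 0.09) and -0.39 (SE 0.09). Hsf2 fell at both ages, at -0.47 (SE 0.16) and -0.53 (SE 0.16), and Hsf1 stood at -0.20 (SE 0.10, adjusted p = 0.152) and -0.07 (SE 0.10, adjusted p = 0.659) without a call by edgeR. Rbm3 fell at both, at -1.18 (SE 0.17) and -0.85 (SE 0.16), while Cirbp, at -0.43 (SE 0.18) and -0.22 (SE 0.18), was not called.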

How the data were processed

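Gene-level counts of polyA RNA from 18 mouse livers were used as the authors deposited them, as 1 table of raw counts. The tools TopHat2 2.0.9 and DESeq2 and the build GRCm38 (mm10) are named, without their role, per the submitters' processing notes. The counting tool, its annotation and its use of strand were not stated in the labels (not given in the sources used here). Identifiers were paired with symbols through GENCODE M21 for 35449 of 37315 genes. Total counts were 24690871 to 46949361 per library, and no columns were identical.

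Counts were filtered (edgeR 4.0.16, R 4.3.3, filterByExpr with a minimum of 10), scaled by TMM and fitted by edgeR's quasi-likelihood test, with 1 coefficient for each of the 6 groups and labelled sex within age, over all 18 libraries. The fit had 9 residual degrees of freedom. P-values were adjusted by Benjamini-Hochberg over 16213 genes with a threshold of 0.05. Levels are CPM on TMM-scaled library sizes. Hspa1a and Hspa1b were also summed and tested as 1 row. The fit was tested on simulated data with known changes. Alternatives were DESeq2 1.42.0, other scalings, no filter, no sex term and leaving out libraries. Chosen after seeing the data were 4 alternatives: totals without Mup genes, leaving out the 2 libraries with squamous transcripts, adults alone, and Hspa1a and Hspa1b as 1 row.

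The chaperone genes and the gene lists were chosen with earlier results of these data known. Named were all 10 chaperone genes, and from each list genes among the 6 with the smallest p past the threshold, with Hsf1, Hsf2, Cirbp and Rbm3 always, and the genes with the highest and lowest likeness, some of which are not reported here. Replicate numbers follow accession order and pair no samples.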

Additional observations from a re-analysis of the deposited data

How the results depend on the processing

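Calls among the 10 chaperone genes were counted under each alternative in up to 11 comparisons, and some alternatives covered fewer. Single-gene values leave out the differences of the asparaginase effect between ages. Of the single-gene values that did not leave out a library in turn, 549 stayed on their side of the threshold with the same direction, 18 lost and 21 gained the call and 42 changed direction; of those that left out 1 library, the counts were 1327, 55, 21 and 37. For the mean of the 3 ages, 4 genes fell in the reported fit, 2 with plain library totals, 1 with no sex term, 0 without the 3 libraries that held transcripts of both sexes and 0 without the 2 libraries with squamous transcripts. DESeq2 called 4 genes at 8 weeks, 5 at 16 weeks, 2 for 8 against 2 weeks and 1 for 16 against 2 weeks, against 0 by edgeR, and 5 for the mean of the ages and 7 for sex, against 4 and 5 by edgeR. Dropping the filter on low counts gave 1 at 8 weeks of asparaginase, 1 for 8 against 2 weeks and 1 for 16 against 2 weeks. With plain totals 4 and 9 genes were lower at 8 and 16 against 2 weeks, and 2 were lower in males. No share of all genes called is given for the alternatives, so their counts stand without a background. Leaving out each library gave 0 to 5 calls for the mean of the ages, 0 to 4 at 8 weeks (4 without asparaginase replicate 3 of 8 weeks), 0 to 1 at 16 weeks, 0 to 2 for both PBS comparisons with 2 weeks and 0 to 6 for sex. Beyond plain totals, which shift all genes, the cause was not tested.

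With plain totals the direction turned at 8 weeks of asparaginase for Hsp90ab1 (0.248) and Hspa8 (0.118), at 16 weeks for Hsp90ab1 (0.134) and for the mean of the ages for Hspa8 (0.0936). It turned for 8 against 2 weeks in Hsp90aa1 (-0.398), Hsp90ab1 (-0.365), Hspa8 (-0.551), Dnaja1 (-0.384), Dnajb1 (-0.327), Fkbp4 (-0.448) and Stip1 (-0.538), and for 16 against 2 weeks in Hsp90aa1 (-0.657), Hsp90ab1 (-0.716), Hspa8 (-0.721), Dnaja1 (-0.439), Dnajb1 (-0.673), Fkbp4 (-0.407) and Stip1 (-0.566). It turned for 16 against 8 weeks in Dnaja1 (-0.0544) and Stip1 (-0.028), and for males in Hsp90ab1 (-0.335), Hspa8 (-0.361), Dnaja1 (-0.113), Dnajb1 (-0.0632), Fkbp4 (-0.353) and Stip1 (-0.144). Totals without Mup genes turned Hsp90ab1 (-0.013) and Hspa8 (-0.0201) for 16 against 2 weeks and Hsph1 (0.024) for 16 against 8 weeks. Hsph1 for 16 against 8 weeks also turned with no sex term (0.0821) and in a fit of the compared libraries alone (0.0811). Without the 3 libraries with transcripts of both sexes, Hspa1a (0.456) and Hspa1b (0.405) turned at 2 weeks, Hspa1a (0.316), Hspa1b (0.371) and Hspa8 (-0.0479) for 16 against 2 weeks, and Hsph1 (0.0029) for 16 against 8 weeks. Without the 2 squamous libraries, Hsp90ab1 (0.0492), Hspa8 (0.193) and Dnajb1 (0.162) turned at 8 weeks and Hspa8 (0.0252) for the mean of the ages, and the mean of adults alone turned Hsp90ab1 (-0.12).

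Leaving out 1 library at a time turned some directions. For asparaginase, the ranges were -0.611 to 0.335 (Hspa1a), -0.594 to 0.255 (Hspa1b) and -0.083 to 0.282 (Hsph1) at 2 weeks, -1.37 to 0.471 (Hspa1a), -1.33 to 0.45 (Hspa1b) and -0.268 to 0.035 (Hsp90ab1) at 16 weeks, and -0.0398 to 0.061 (Hsp90ab1) for the mean of the ages. For 16 against 2 weeks they were -1.27 to 0.0799 (Hspa1a), -1.16 to 0.206 (Hspa1b), -0.159 to 0.231 (Dnajb1), -0.0518 to 0.114 (Hsp90ab1) and -0.207 to 0.16 (Hspa8). For 16 against 8 weeks they were -0.159 to 0.142 (Dnaja1), -0.0907 to 0.204 (Fkbp4), -0.379 to 0.00901 (Hspa8), -0.471 to 0.223 (Hsph1) and -0.189 to 0.121 (Stip1), and for sex -0.0214 to 0.305 (Hspa8). Leaving out both squamous libraries left 1 asparaginase library at 8 weeks, which was assumed to vary like the other groups. No paired analysis was possible because the replicate numbers follow accession order and carry no shared animal, litter or day.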
